A study of Homo sapiens with 12 samples.

Results

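ADAM and ADAMTS metalloproteases were followed across 12 libraries of RNA from MDA-MB-231 cells, a human line of triple-negative breast cancer origin. The set holds 10 genes, ADAM8, ADAM9, ADAM10, ADAM12, ADAM15, ADAM17, ADAM19, ADAMTS1, ADAMTS6 and ADAMTS15, found by symbol among the 57773 genes of the count table. There were 3 libraries in each of 4 groups: untreated, TGFβ, alisertib, and both agents at once, with 48 h of treatment. TGFβ, a cytokine, acts on target genes through SMAD transcription factors, whereas alisertib blocks Aurora A, a kinase of dividing cells. The labels give no dose for either agent. All groups were the same line, cultured in DMEM with fetal bovine serum, and whether same-group libraries came from separate cultures is not stated. The p-values therefore measure the spread between these libraries, which may be technical. The design asks how each agent changes these genes, and whether the alisertib effect depends on TGFβ.

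ADAM proteins are membrane-anchored enzymes with a disintegrin and a metalloprotease domain. They cut the extracellular part off other membrane proteins, a step called shedding that releases growth factor ligands of the EGF receptor family and starts Notch signalling. ADAMTS proteins lack the membrane anchor, carry thrombospondin-type repeats and cut proteins of the extracellular matrix such as versican and fibrillin. Tissue inhibitors of metalloproteinases (TIMP proteins) block many of them, and furin-type proteases remove the prodomain that keeps them inactive.

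Total counts ran from 93701658 to 120619368 per library, and all 10 genes passed the filter on low counts, as did 20571 genes in all. A residual component separated 4 libraries, 1 in each group, from the other members of their groups (untreated 1, TGFβ 6, alisertib 9 and combined 10). The separation was clear in the untreated group, with scores of 40.6, -20.1 and -20.4. In the alisertib group it was graded, with scores of -9.92, -3.78 and 13.7 for libraries 7, 8 and 9. Summed mesenchymal markers of the line (VIM, CD44, CAV1, AXL and MSN) reached 5074 to 6967 CPM (counts scaled to library size, with TMM factors), while ESR1 and PGR stayed at or under 0.0423 CPM. ERBB2, checked with ESR1 and PGR, was present, with means of 65.1 CPM untreated, 66 with TGFβ, 53.9 with alisertib and 58.6 with both. The mesenchymal sum was 5074 to 5282 CPM untreated and 6570 to 6787 after TGFβ. Of these markers 3 rose with TGFβ and 2 fell, CAV1 from 931 to 578 CPM and AXL from 938 to 633 CPM. Of 9 leukocyte markers 6 were tested, and their sum was carried by CD68, with PTPRC at 0.18 CPM or less; it was 45.7 to 60.7 CPM untreated, 72.7 to 80.9 after TGFβ, 67 to 73.2 after alisertib and 81.5 to 92.9 CPM after both. Of 7 luminal markers 6 were tested, and the sum was 622 to 855 CPM over the libraries, carried by KRT8, KRT18 and KRT19. EPCAM stayed at or under 19.7 CPM, GATA3 at or under 7.58, CDH1 at or under 5.88 and FOXA1 at or under 0.0581 CPM. Of 5 endothelial markers counted, 2 were tested, summing to 1.72 to 3.79 CPM with CLDN5 at 0. The 7 fibroblast markers, of which 6 were tested, summed to 23.7 to 31.7 CPM in libraries without TGFβ and to 139 to 214 CPM with it, through COL1A1, COL1A2 and PDGFRB, while DCN stayed at or under 0.0687 CPM. The part of these markers in the results below was not tested. Counts come from whole cultures, so a change in the number of cells that express a gene and a change in RNA per cell cannot be told apart.

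The 4 members that rose with TGFβ did so by log2 fold changes of 0.49 (ADAM17) to 3.51 (ADAM19), and shared control was not tested. The regions just before their start sites are shown here. They are the 250 bases before the start site in RefSeq (build GRCh38.p14), 5′ to 3′ on the strand of the gene. Capitals mark CAGAC or its reverse complement GTCTG, the core of the element that SMAD proteins are known to bind.
ADAM19: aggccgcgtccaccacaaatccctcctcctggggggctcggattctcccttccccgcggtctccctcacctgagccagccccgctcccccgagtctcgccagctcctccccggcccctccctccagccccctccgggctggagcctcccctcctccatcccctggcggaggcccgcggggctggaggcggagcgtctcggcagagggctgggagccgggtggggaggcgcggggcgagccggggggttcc
ADAM12: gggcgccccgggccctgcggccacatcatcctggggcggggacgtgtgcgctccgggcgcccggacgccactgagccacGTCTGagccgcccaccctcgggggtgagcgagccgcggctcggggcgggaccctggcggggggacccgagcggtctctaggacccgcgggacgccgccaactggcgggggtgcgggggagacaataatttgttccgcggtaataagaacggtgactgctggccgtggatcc
ADAMTS6: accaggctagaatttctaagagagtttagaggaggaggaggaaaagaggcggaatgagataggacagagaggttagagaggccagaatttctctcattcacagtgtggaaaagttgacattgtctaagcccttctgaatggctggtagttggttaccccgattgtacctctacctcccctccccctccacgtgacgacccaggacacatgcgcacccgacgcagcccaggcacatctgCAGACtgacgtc
ADAM17: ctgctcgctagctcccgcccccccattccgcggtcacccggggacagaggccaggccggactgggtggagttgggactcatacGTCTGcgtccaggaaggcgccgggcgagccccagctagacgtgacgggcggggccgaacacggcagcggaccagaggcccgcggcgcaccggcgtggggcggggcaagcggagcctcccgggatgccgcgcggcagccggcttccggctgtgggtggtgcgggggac
The ADAM19 stretch lies at chr5:157575776-157576025, ADAM12 at chr10:126388478-126388727, ADAMTS6 at chr5:65481921-65482170 and ADAM17 at chr2:9555831-9556080, all on the minus strand. Promoters of 7 of the 10 members were in the table, without ADAM9, ADAMTS1 and ADAMTS15. CAGAC, searched on both strands, was present in 4 of these 7 (ADAM12, ADAMTS6, ADAM17 and ADAM10) and in 38.0% of all 35116 promoters of that length. The ADAM19 stretch holds none, and in ADAMTS6 the match begins 12 bases before the start. TGANTCA, the form of the AP-1 element and a motif without overlap with CAGAC, was in 0 of the 7 and in 6.57% of all. A match is a run of letters and not a bound site.

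TGFβ moved 6 of the 10 genes in cells without alisertib. ADAM19, ADAM12, ADAMTS6 and ADAM17 rose, ADAM9 and ADAMTS15 fell, and ADAM8, ADAM10, ADAM15 and ADAMTS1 did not pass (quasi-likelihood test in edgeR; a call needs a Benjamini-Hochberg adjusted p under 0.05 over all tested genes). In this comparison 38.6% of all tested genes were called, 18.5% higher and 20.1% lower. The median log2 fold change was -0.10 over the members and -0.01 over all tested genes.

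ADAM19, also called meltrin beta, is a membrane protease known to release neuregulins. Its level was 56.8, 57.4 and 55.7 CPM in untreated libraries and 638, 661 and 643 CPM with TGFβ. It was 70.2, 65.4 and 66.4 CPM with alisertib and 570, 628 and 638 CPM with both. The libraries with TGFβ lay about an order of magnitude above those without, and no value of one set reached the other. The log2 fold change with TGFβ was 3.51 ± 0.05 (SE, n = 3 per group, edgeR adjusted p = 9.3e-15), which placed ADAM19 at rank 3 by p among the 20571 tested genes. In alisertib-treated cells TGFβ raised it by 3.18 ± 0.05 on the log2 scale.

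ADAM12, or meltrin alpha, is a protease of fusing muscle precursors and of many carcinomas that is known to release heparin-binding EGF. It was at 7.18, 6.73 and 7.22 CPM in untreated libraries, 20.3, 20.7 and 21.3 with TGFβ, 8.73, 9.61 and 9.29 with alisertib, and 21.9, 22 and 21.6 CPM with both. No groups overlapped; untreated was lowest and alisertib next, while the 2 groups with TGFβ lay highest and close together. TGFβ gave a log2 fold change of 1.56 ± 0.06 without alisertib (edgeR adjusted p = 1.13e-10) and 1.24 ± 0.06 with it (edgeR adjusted p = 1.47e-09).

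ADAM17, the enzyme that releases TNF and most ligands of the EGF receptor, rose less. Its levels were 109, 103 and 99.5 CPM in untreated libraries, 144, 142 and 151 with TGFβ, 94.5, 99.9 and 100 with alisertib, and 139, 134 and 139 CPM with both. Every library with TGFβ was above every library without it. TGFβ gave log2 fold changes of 0.49 ± 0.05 without alisertib (edgeR adjusted p = 1.27e-06) and also 0.49 ± 0.05 with it (edgeR adjusted p = 1.53e-06). The locus overlaps IAH1, which took 55430 counts over the 12 libraries against 154914 for ADAM17, and the kit does not mark strand.

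ADAM9, a widely expressed membrane protease, fell. It had 557, 506 and 512 CPM in untreated libraries, 378, 387 and 416 with TGFβ, 492, 525 and 546 with alisertib, and 439, 406 and 411 CPM with both. Libraries with TGFβ were all lower than those without. TGFβ gave a log2 fold change of -0.42 ± 0.06 (edgeR adjusted p = 3.64e-05), and -0.32 ± 0.06 in alisertib-treated cells (edgeR adjusted p = 0.000488).

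ADAM10, the main protease that cuts Notch receptors and the amyloid precursor protein, stayed near its untreated level with TGFβ. Its values were 337, 301 and 320 CPM in untreated libraries, 298, 307 and 337 with TGFβ, 264, 280 and 287 with alisertib, and 300.2, 280 and 287 CPM with both. The untreated and TGFβ groups overlapped and the alisertib group lay below both. The log2 fold change with TGFβ was -0.03, with a 95% interval from -0.15 to 0.10.

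Of the secreted members, ADAMTS6 moved most. It is known from fibrillin microfibrils and heart development. It had 25, 21.9 and 19.9 CPM in untreated libraries, 98.9, 99.7 and 107 with TGFβ, 37.8, 37 and 39 with alisertib, and 96.7, 94.7 and 95.5 CPM with both. Alisertib libraries stood above untreated ones, and both groups with TGFβ stood far above these. TGFβ raised ADAMTS6 by a log2 fold change of 2.19 ± 0.07 in cells without alisertib (edgeR adjusted p = 9.56e-12) and 1.33 ± 0.07 in cells with it (edgeR adjusted p = 1.6e-09).

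ADAMTS15, which cuts the proteoglycans versican and aggrecan, moved in the opposite direction. Its levels were 140, 169 and 173 CPM in untreated libraries, 69.3, 68.8 and 62 with TGFβ, 130, 129 and 120.8 with alisertib, and 59.5, 64.8 and 62.5 CPM with both. No library with TGFβ overlapped those without. For ADAMTS15 TGFβ gave a log2 fold change of -1.27 ± 0.08 (edgeR adjusted p = 5.89e-09), and -1.02 ± 0.08 in alisertib-treated cells (edgeR adjusted p = 7.34e-08).

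ADAMTS1, a secreted protease of versican, was close to the limit of detection. Its counts were 53, 65 and 42 reads in untreated libraries, 36, 38 and 32 with TGFβ, 87, 60 and 53 with alisertib, and 54, 26 and 38 with both. Levels were thus under 1 CPM in every library. The log2 fold change with TGFβ was -0.72 ± 0.29 and did not pass (edgeR adjusted p = 0.0675), but it passed without untreated library 3 (0.0459) or combined library 10 (0.0405). In alisertib-treated cells it was -0.81 ± 0.28 and passed (edgeR adjusted p = 0.0365), which was lost without alisertib library 7 (0.15), alisertib library 8 (0.0545), combined library 11 (0.153) or combined library 12 (0.11), and in a fit of only those groups (0.0523).

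**Figure D1:**
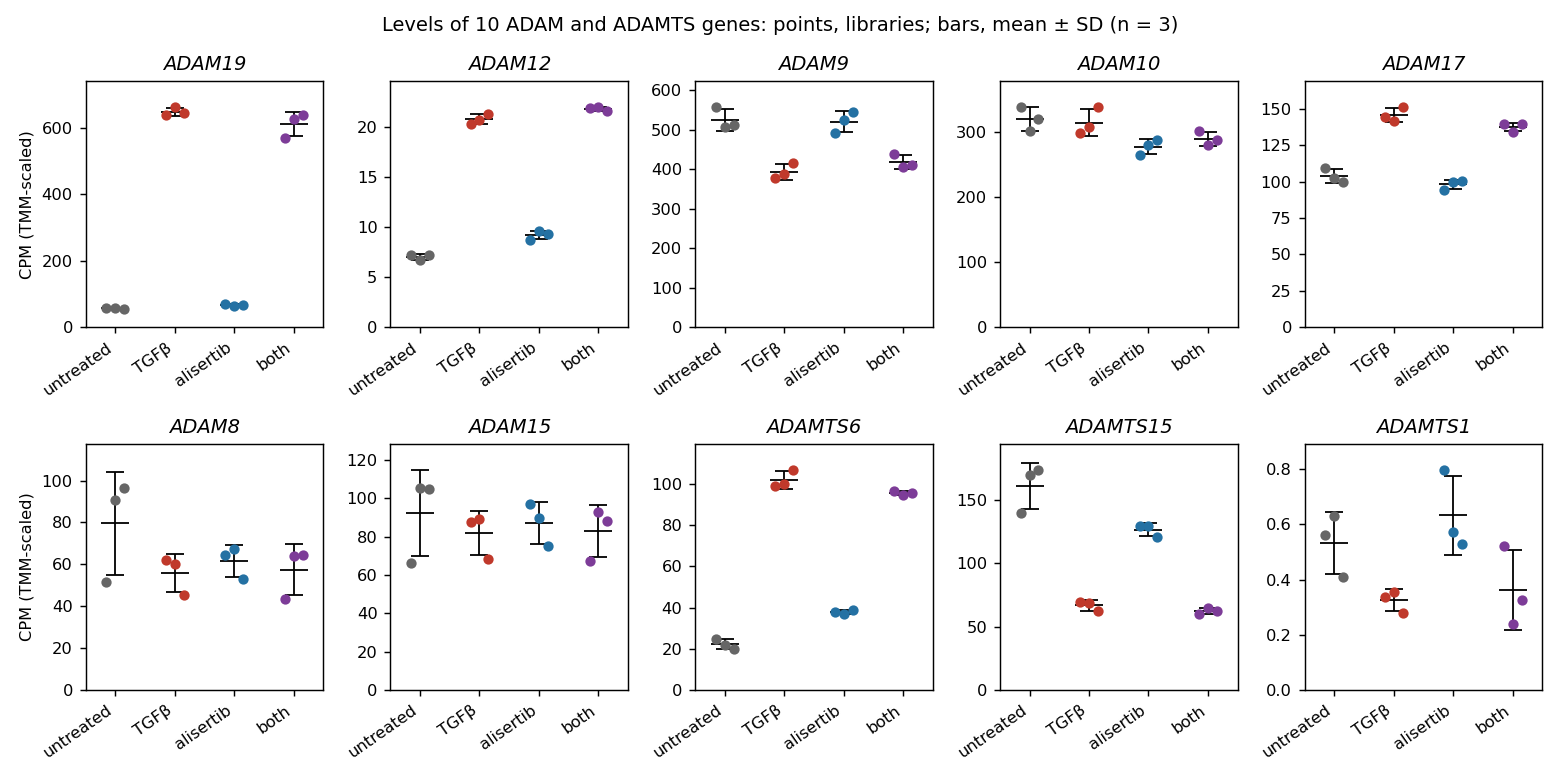
Level in CPM (linear axis from 0) of each of the 10 genes in the 4 groups; points are libraries and bars show mean ± SD (n = 3). ADAM19 goes from 56.6 to 647 CPM on average with TGFβ. ADAMTS6 has means of 22.2, 102, 38 and 95.6 CPM for untreated, TGFβ, alisertib and both, and the difference between TGFβ and both did not pass.

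ADAM8, an active protease of leukocytes and of invasive breast carcinoma, and ADAM15, a protease with an integrin-binding motif, had wide ranges within groups. ADAM8 had 51.4, 90.8 and 96.4 CPM in untreated libraries, 61.9, 60.1 and 45.4 with TGFβ, 64.7, 67.2 and 52.8 with alisertib, and 43.6, 64.2 and 64.7 CPM with both. ADAM15 had 66.3, 105 and 105 CPM in untreated libraries, 87.8, 89.2 and 68.5 with TGFβ, 96.8, 89.5 and 75.3 with alisertib, and 67.5, 92.9 and 88.1 CPM with both. In each group the lowest value of both genes was in the library that stood apart, and all groups overlapped. With TGFβ the log2 fold change was -0.51 ± 0.21 for ADAM8 (edgeR adjusted p = 0.0658) and -0.17 ± 0.17 for ADAM15 (edgeR adjusted p = 0.462).

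These are the members richest in G and C. The longest transcript in GENCODE 29 has a GC content of 63.8% for ADAM8 and 63.9% for ADAM15, above 95.5% and 95.7% of tested genes, against a median of 48.1%. The 4 libraries that stood apart were lower than the mean of their partners by 0.32 to 0.86 (log2 CPM) for ADAM8 and by 0.31 to 0.66 for ADAM15. ADAMTS15, with 59.8% GC, differed there by -0.29 to -0.10, while ADAM9, ADAM10 and ADAM17, with 39.4%, 38.3% and 38.5%, differed by 0.02 to 0.16. Without these 4 libraries, and so with 2 a group, the log2 fold change with TGFβ was -0.62 for ADAM8 and -0.25 for ADAM15; with the residual component as a covariate it was -0.47 and -0.15, and -0.71 for ADAMTS1. These values passed the threshold in those fits, but both the libraries and the covariate were picked from the residuals of the same data, which lowers the spread within groups and makes such p-values too small. They are therefore given without p-values, here and below, and a pass in such a fit is not taken as support for a change. ADAM8 also passed without untreated library 1 alone (-0.75, edgeR adjusted p = 0.0130). The other 6 calls with TGFβ were made in each of the 18 other settings, with the same sign. The fits without the 4 libraries and with the covariate are among these settings.

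**Figure D2:**
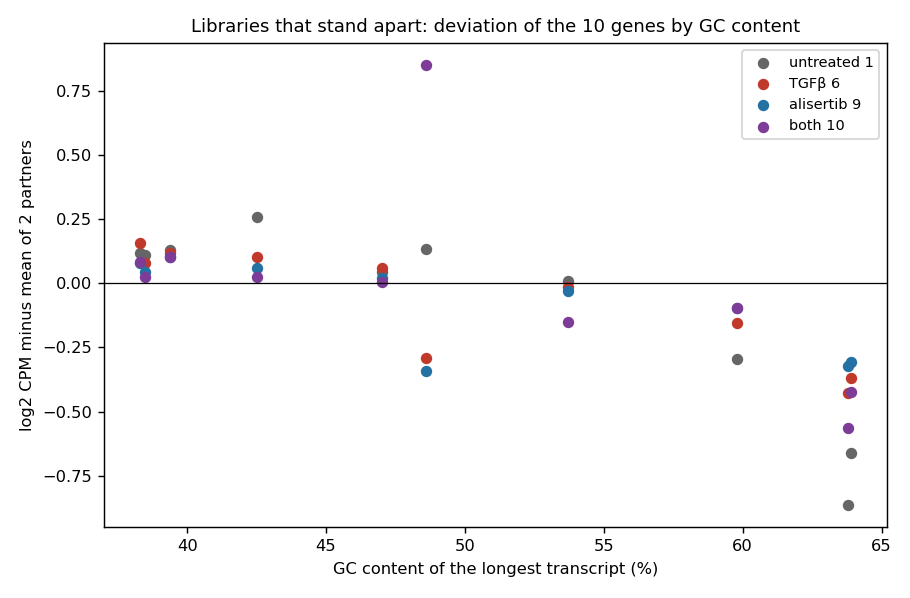
Difference in log2 CPM between the library that stands apart and the mean of its 2 partners, against the GC content of the longest transcript, for 10 genes (points) in 4 groups (colours). Points of ADAM8 and ADAM15 at the right lie between -0.86 and -0.31, and those of ADAM9, ADAM10 and ADAM17 at the left lie above 0; the scattered points at 48.6% are ADAMTS1.

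Levels of different genes were compared per length, with the authors' RPKM (reads per kilobase of gene length, scaled to library size). In untreated cells ADAM9 was highest with 70.5 ± 2.93 RPKM (SD, n = 3), followed by ADAM10 with 34.3 ± 1.68, ADAMTS15 with 26.4 ± 3.32 and ADAM17 with 17.6 ± 0.605. ADAM17, ADAM8 (15.5 ± 4.92) and ADAM15 (13 ± 3.28) overlapped as neighbours, and ADAM19 came seventh with 6.82 ± 0.0921 RPKM. Below it were ADAMTS6 with 2.41 ± 0.247, ADAM12 with 0.663 ± 0.027 and ADAMTS1 with 0.07 ± 0.0144 RPKM, with no overlap between neighbours. The order with alisertib was the same but for ADAM8 and ADAM15, which overlapped and changed places.

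With TGFβ the order changed. ADAM19 led with 73.4 ± 1.11 RPKM, above ADAM9 with 49.8 ± 2.61, and in cells given both agents it was at 70 ± 3.83 against 53.5 ± 2.5. The ranges of the leading pair did not overlap in either group. ADAM15, ADAMTS6, ADAMTS15 and ADAM8 lay together at 10.9, 10.4, 10.3 and 10.2 RPKM with TGFβ, with overlap between neighbours. ADAM19 made up 3.65% of the summed RPKM of the 10 genes in untreated cells, 4.65% with alisertib, 33.1% with TGFβ and 32% with both. The share of ADAM9 was 37.7%, 40.1%, 22.4% and 24.5% in the same order. The sum was 187 ± 7.17, 177 ± 3.11, 222 ± 2.61 and 218 ± 4.01 RPKM.

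**Figure D3:**
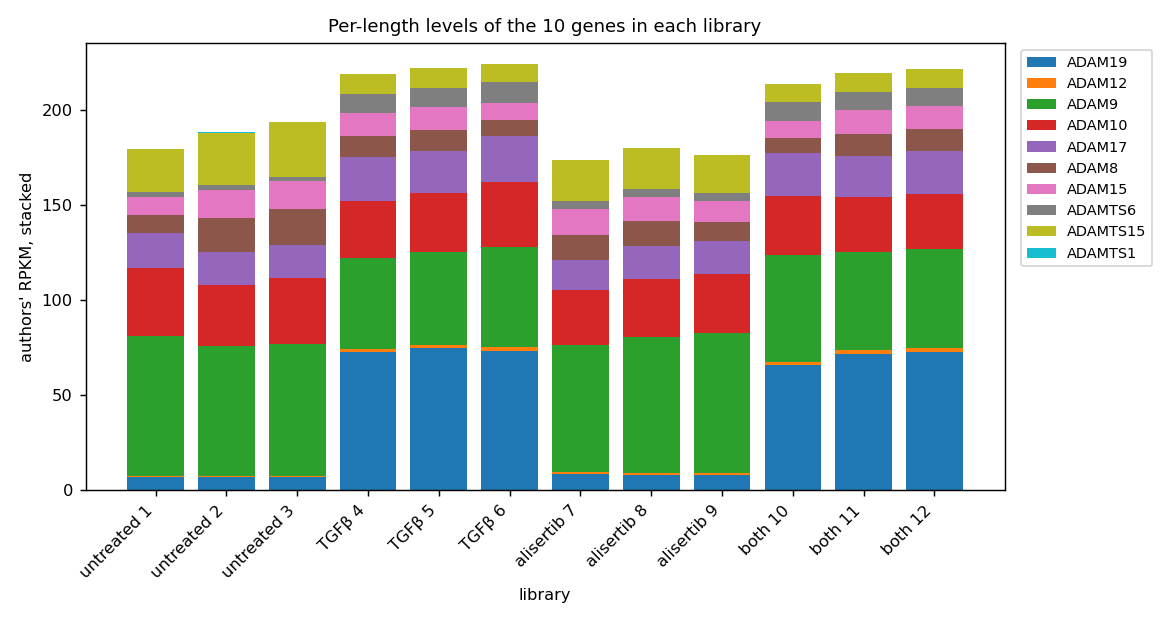
Authors' RPKM of the 10 genes stacked for each of the 12 libraries (linear axis from 0). ADAM19, the lowest block, takes 33.1% of the stack with TGFβ and 3.65% in untreated libraries; ADAMTS1 and ADAM12 are barely visible.

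**Figure D4:**
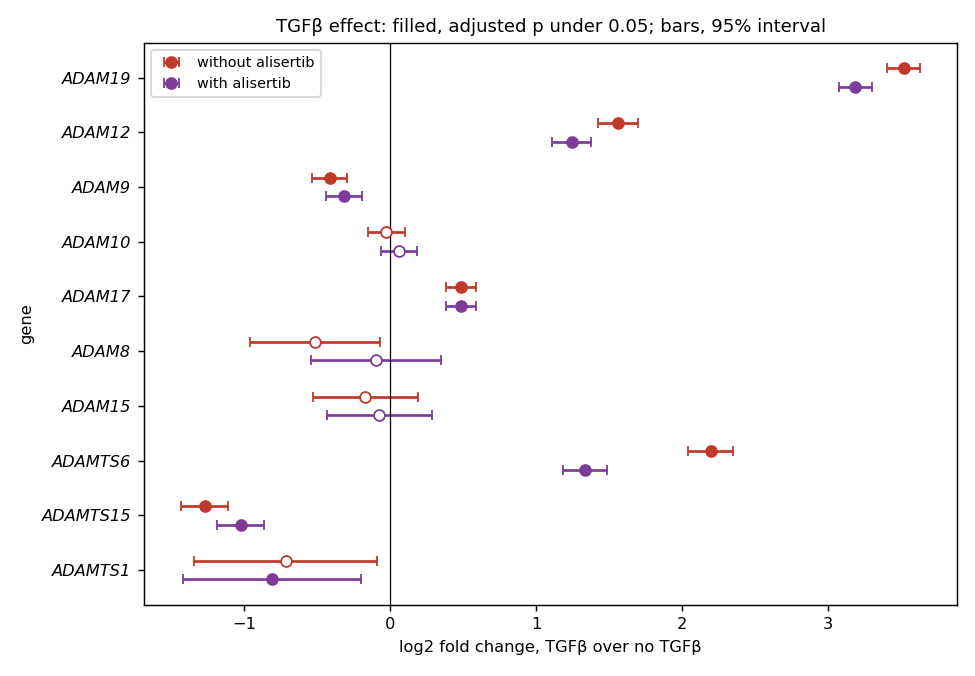
Log2 fold change with TGFβ in cells without and with alisertib, with 95% intervals; filled points have an edgeR adjusted p under 0.05. ADAM19 (3.51 and 3.18), ADAMTS6 (2.19 and 1.33) and ADAM12 (1.56 and 1.24) are highest in both, and ADAMTS15 (-1.27 and -1.02) is lowest.

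Alisertib alone moved 5 of the 10 genes. ADAMTS6, ADAM12 and ADAM19, which also rose with TGFβ, were higher, and ADAMTS15 and ADAM10 were lower. In this comparison 6.74% of all tested genes were called, 3.55% higher and 3.19% lower, and the median log2 fold change was -0.05 over the members and -0.01 over all tested genes. The comparisons of TGFβ and of alisertib with untreated cells share the untreated libraries. ADAMTS6 had a log2 fold change of 0.77 ± 0.07 (edgeR adjusted p = 2.65e-05), rank 21 by p among tested genes. ADAM12 rose by 0.39 ± 0.06 (edgeR adjusted p = 0.00233) and ADAM19 by 0.25 ± 0.05 (edgeR adjusted p = 0.00735) on the log2 scale.

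The falls were smaller against their error. ADAMTS15 had a log2 fold change of -0.35 ± 0.07 (edgeR adjusted p = 0.0130). That call was lost without untreated library 2 (0.0662), untreated library 3 (0.0914) or alisertib library 9 (0.0693). ADAM10 had -0.21 ± 0.06 at an edgeR adjusted p of 0.0478. It was lost with 9 libraries left out 1 at a time: untreated 1 (0.0651) and 3 (0.13), TGFβ 4 (0.0586) and 5 (0.069), alisertib 7 (0.184), 8 (0.12) and 9 (0.0783), and combined 11 (0.0623) and 12 (0.0722). It was also lost with DESeq2 (adjusted p = 0.06) and with size factors in place of TMM (edgeR adjusted p = 0.0787). In a fit of only untreated and alisertib libraries the adjusted p was 0.151 for ADAM10, 0.0553 for ADAMTS15 and 0.0516 for ADAM12, so ADAM19 and ADAMTS6 remained called there. ADAM8 did not pass (-0.37 ± 0.21, edgeR adjusted p = 0.361), and was at -0.50 without the 4 libraries that stood apart and -0.32 with the covariate, past the threshold in both of those fits. ADAM15 was at -0.17 without the 4 libraries, also past it there. ADAM9 (95% interval -0.13 to 0.11), ADAM17 (-0.18 to 0.02) and ADAMTS1 (-0.35 to 0.84) did not pass, except ADAM17 with the covariate (-0.08).

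In TGFβ-treated cells alisertib moved none of the 10 genes past the threshold. The count was 0 with the edgeR test, 0 at an unadjusted p under 0.05 and 0 with DESeq2, where 2.08% of all tested genes were called by edgeR, 1.19% higher and 0.89% lower. With a covariate for the component along which libraries stood apart, 1 member was past the threshold as higher (ADAM9, 0.09) and 2 as lower (ADAM10, -0.12, and ADAMTS15, -0.10). That fit, whose p-values are too small, called 3052 of all genes against 428. The log2 fold change of ADAMTS6 was -0.09, with a 95% interval from -0.23 to 0.06, of ADAM19 -0.08 (-0.19 to 0.02) and of ADAM12 0.07 (-0.06 to 0.20). Intervals were wide for ADAM8 (-0.40 to 0.49), ADAM15 (-0.34 to 0.38) and ADAMTS1 (-0.49 to 0.80).

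**Figure D5:**
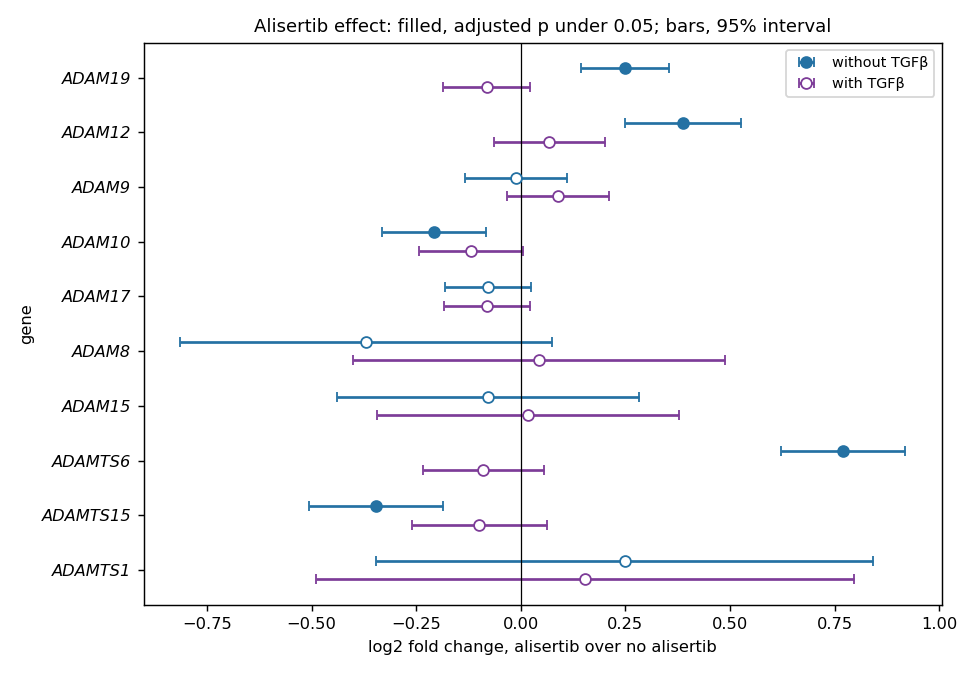
Log2 fold change with alisertib in cells without and with TGFβ, with 95% intervals; filled points have an edgeR adjusted p under 0.05. ADAMTS6 lies at 0.77 without TGFβ and at -0.09 with it, and no point with TGFβ is filled.

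The dependence of the alisertib effect on TGFβ was tested as an interaction, the alisertib effect with TGFβ minus that without it. ADAMTS6 passed, with a difference of -0.86 ± 0.10 on the log2 scale (edgeR adjusted p = 0.00294) and rank 3 by p among 20571 genes. It was the 1 member called among 10 (4 had an unadjusted p under 0.05, and DESeq2 called ADAMTS6 and ADAM19), where 0.282% of all tested genes were called, 0.117% higher and 0.165% lower. The call was made in each of the 17 other settings, with differences of -0.95 to -0.80. With 1 library left out, the 12 fits gave edgeR adjusted p-values of 4.2e-05 to 0.0156. The settings include the fits without the 4 libraries and with the covariate, whose p-values are too small and are not given. Alisertib libraries were at 37 to 39 CPM against 19.9 to 25 CPM in untreated ones, whereas cells given both agents had 94.7 to 96.7 CPM, under the 98.9 to 107 CPM of TGFβ alone. The difference between those with both agents and those with TGFβ alone did not pass (edgeR adjusted p = 0.68).

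ADAM19 and ADAM12 had differences of the same sign that did not pass. For ADAM19 the difference was -0.33 ± 0.07 (edgeR adjusted p = 0.0696). It passed with DESeq2 (adjusted p = 0.00166), with no filter on low counts (0.0232) and without untreated library 1 (0.0330), and was past the threshold without the 4 libraries (-0.31) and with the covariate (-0.33). For ADAM12 it was -0.32 ± 0.09 (edgeR adjusted p = 0.253), and it was past the threshold with the covariate alone (-0.32). ADAMTS15, which fell with each agent alone, had a difference of 0.25 ± 0.11 (edgeR adjusted p = 0.809), and was past the threshold without the 4 libraries (0.28) and with the covariate (0.24). For ADAM8 it was 0.41 ± 0.29 (edgeR adjusted p = 0.9999), and was past it without the 4 libraries (0.58) and with the covariate (0.36). The intervals were -0.15 to 0.14 for ADAM17, -0.07 to 0.27 for ADAM9, -0.09 to 0.26 for ADAM10, -0.41 to 0.60 for ADAM15 and -0.97 to 0.78 for ADAMTS1.

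Against untreated cells, the combined treatment raised 4 members and lowered 2, where 39.7% of all tested genes were called, 19.4% higher and 20.3% lower. The log2 fold changes were 3.43 ± 0.05 for ADAM19, 2.10 ± 0.07 for ADAMTS6, 1.63 ± 0.06 for ADAM12, 0.41 ± 0.05 for ADAM17, -0.33 ± 0.06 for ADAM9 and -1.37 ± 0.08 for ADAMTS15. ADAM10 was at -0.14 ± 0.06 (edgeR adjusted p = 0.0627), which passed without untreated library 2 (0.0263), without TGFβ library 6 (0.0451) and with no filter (0.0428). ADAM8 was at -0.47 ± 0.21 (edgeR adjusted p = 0.0896) and passed without untreated library 1 (0.0167). ADAMTS1 was at -0.56 ± 0.29 (edgeR adjusted p = 0.143) and passed without combined library 10 (0.0251). ADAM15 was at -0.15 ± 0.17 (edgeR adjusted p = 0.513). Without the 4 libraries that stood apart 6 members were lower and past the threshold in place of 2, through ADAM8 (-0.54), ADAM10 (-0.13), ADAM15 (-0.21) and ADAMTS1 (-0.87). With the covariate 5 were, through ADAM8 (-0.44), ADAM10 (-0.14) and ADAM15 (-0.13). The p-values of both fits are too small, as said above, and over all genes they called 9821 and 11216 against 8169. In alisertib-treated cells TGFβ raised 4 members and lowered 3, against 38.4% of all tested genes called, 19.4% higher and 19% lower. With the covariate ADAM8 (-0.11) and ADAM15 (-0.08) were past the threshold as well, under the same limit.

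Genes with the pattern most like a member were sought among 10481 genes with at least 5 CPM, by the root mean square difference of centred log2 CPM over the 12 libraries. A filter on names meant to drop clone-based and antisense symbols also dropped every symbol that starts with AC, AL or AP. Genes with such symbols were not searched, so a nearer gene may have been missed. For ADAM19 they were COL6A3, a collagen chain (0.104), PMEPA1 (0.124) and FAXDC2 (0.136). For ADAM12 they were DGKA, a diacylglycerol kinase (0.0541), KLF4 (0.0702) and TMC7 (0.0727). For ADAMTS15 they were TCEA3 (0.0543), PLEKHA6 (0.0706) and ATP11A (0.0762). The nearest genes of ADAMTS6 were farther away: KLF7 (0.148), EPHA4, an ephrin receptor (0.159), and TRIB1 (0.164). The other 6 members spanned less than 1 on the log2 scale between group means and were not matched.

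Of 14 other ADAM genes 5 were tested, and with TGFβ 2 fell and 0 rose by edgeR and by DESeq2, with 0 higher at an unadjusted p under 0.05. Counts for this list and those below stand against 38.6% of all tested genes called with TGFβ, 18.5% higher and 20.1% lower. That share was 6.74% with alisertib alone, 2.08% with alisertib in TGFβ-treated cells and 0.282% in the interaction. Whether a list exceeds these shares was not tested. ADAM28, a protease of lymphocytes and carcinomas, went from 26.2 ± 2.22 CPM in untreated cells to 5.29 ± 0.365 with TGFβ, 15.4 ± 1.28 with alisertib and 5.09 ± 0.364 with both (SD, n = 3). It was the gene of this list called in the interaction, at 0.71 (edgeR adjusted p = 0.0363), the sign opposite to that of ADAMTS6. ADAM22, a neuronal member without protease activity, went from 15.8 to 5.75 ± 0.515 CPM with TGFβ, and to 11.6 ± 1.02 CPM with alisertib (log2 fold change -0.44, edgeR adjusted p = 0.0167).

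Of 16 other ADAMTS genes 9 were tested, and 4 rose and 2 fell with TGFβ. ADAMTS7 rose from 0.622 ± 0.179 to 13.1 ± 2.43 CPM. Pseudogenes of ADAMTS7 are listed in the count table, so its reads may be shared with copies. ADAMTS16 rose from 52 ± 1.44 to 95.8 ± 2.51 CPM, and ADAMTS9 from 65.1 ± 2.75 to 73.9 ± 1.88 CPM, while ADAMTS12 had a log2 fold change of -0.39 and ADAMTS14 of -0.92. With alisertib 2 rose, ADAMTS9 by 0.31 and ADAMTS16 by 0.30 on the log2 scale. ADAMTS9 also rose with alisertib in TGFβ-treated cells, by 0.25 (edgeR adjusted p = 0.00972). Of 7 tested ADAMTS-like genes, which lack a protease domain, 2 rose and 3 fell with TGFβ, among them ADAMTSL1 (0.59), ADAMTSL4 (-1.77) and PAPLN (-1.66).

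Of 5 inhibitors of these enzymes 3 rose and 1 fell with TGFβ. TIMP1 rose from 117 ± 18 to 219 ± 15.7 CPM, TIMP2 from 452 ± 25.4 to 678 ± 9.34 and TIMP4 from 2.57 ± 0.2 to 5.1 ± 0.436 CPM. TIMP3, which is known to inhibit ADAM17, fell from 200 ± 0.192 to 140 ± 7.79 CPM. With alisertib TIMP3 rose, by 0.19 without TGFβ (edgeR adjusted p = 0.0337) and by 0.24 with it (edgeR adjusted p = 0.0220).

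Of 20 tested genes for maturation, trafficking and uptake, 15 rose and 1 fell with TGFβ, at a median log2 fold change of 0.45 against -0.01 over all tested genes. FURIN, the prodomain-cutting protease, rose from 52 ± 12.1 to 150 ± 21.1 CPM. LRP1, a receptor that takes up secreted ADAMTS proteins, rose from 70.8 ± 22 to 411 ± 48.9 CPM. TSPAN15, a tetraspanin partner of ADAM10, rose from 13.7 ± 1.61 to 38.9 ± 3.9 CPM, and FRMD8, which stabilises the ADAM17 partners named iRhom, had 17.5 ± 3.61 and 42.3 ± 4.55 CPM and passed in that comparison and with alisertib present (1.30, edgeR adjusted p = 8.32e-06). The fall was in SH3PXD2B, a scaffold of invadopodia (-0.28, edgeR adjusted p = 0.0179). With alisertib alone 1 rose, TSPAN5, another tetraspanin partner of ADAM10 (0.37, edgeR adjusted p = 0.000549).

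Shed ligands of the EGF receptor family fell. Of 6 tested, 6 were lower with TGFβ, at a median log2 fold change of -1.52. EREG went from 19.5 ± 1.32 to 1.67 ± 0.238 CPM, BTC from 2.1 ± 0.281 to 0.468 ± 0.175 and TGFA from 139 ± 2.92 to 74.9 ± 2.17 CPM. NRG1, which ADAM19 is known to release, had 32.4 ± 2.49 CPM in untreated cells, 22.1 ± 0.419 with TGFβ, 46.3 ± 1.25 with alisertib and 27.5 ± 1.98 with both. With alisertib alone 2 of the ligands rose, NRG1 by 0.51 (edgeR adjusted p = 0.000441) and HBEGF by 0.20 (edgeR adjusted p = 0.0422) on the log2 scale. With alisertib in TGFβ-treated cells 3 rose, EREG by 1.40, TGFA by 0.37 and NRG1 by 0.31 on the log2 scale, while 0 fell by either edgeR or DESeq2. EREG was the ligand called in the interaction, at 1.21 ± 0.18 (edgeR adjusted p = 0.0125).

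Of 32 other tested membrane proteins known to be shed, 11 rose and 11 fell with TGFβ. JAG1, a Notch ligand, rose from 36.8 ± 1.09 to 211 ± 1.62 CPM, and with alisertib alone to 51.5 ± 0.974. Its interaction was -0.43 (edgeR adjusted p = 0.00804), of the same sign as that of ADAMTS6; a second row of the table with this symbol, overlapping it, was left out. PTPRK, a receptor phosphatase, rose by 1.79, while TNFRSF1B, a TNF receptor, had a log2 fold change of -2.22 and CX3CL1, a membrane-bound chemokine, of -1.90. Of 11 tested matrix substrates of ADAMTS enzymes 7 rose and 2 fell with TGFβ. FBN1, which encodes fibrillin, rose from 82.2 ± 2.89 to 223 ± 8.39 CPM, and COL1A1 and FN1 rose by 4.57 and 2.81 on the log2 scale. TFPI2, a protease inhibitor cut by ADAMTS1, went from 102 ± 2.42 to 51.7 ± 1.56 CPM and was at 82.9 ± 3.64 CPM with both agents, with an interaction of 0.62 (edgeR adjusted p = 0.00245).

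In hg19, the build of the count table, ADAM19 (ENSG00000135074) lies on chromosome 5 from 156822542 to 157002783, and ADAMTS6 (ENSG00000049192) on chromosome 5 from 64444563 to 64777747. ADAM12 (ENSG00000148848) lies on chromosome 10 from 127700950 to 128077024, ADAM17 (ENSG00000151694) on chromosome 2 from 9628615 to 9695921 and ADAMTS15 (ENSG00000166106) on chromosome 11 from 130318869 to 130346532. Other counted genes overlapping the members, IAH1 apart, took at most 970 counts over the 12 libraries (CYFIP2 at ADAM19, against 451834).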

How the data were processed

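Sequencing covered 12 libraries of MDA-MB-231 RNA. Per the labels' protocols, the miRNeasy kit gave the RNA and TruSeq RNA v2 the libraries, without strand marks. The submitters' processing notes name bcl2fastq, TopHat, Subread, featureCounts and hg19; no version or setting is given there. The authors deposited unnormalized whole-number read counts per gene, and also RPKM, whose denominators were 1.1 to 1.11 times the library's total count. The deposited length column was not tested.

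Counts went through filterByExpr, TMM scaling and 1 robust quasi-likelihood fit of all libraries in edgeR 4.0.16 (R 4.3.3), with 6 contrasts adjusted over 20571 genes. SE was derived from each contrast's F statistic, and 95% intervals from the degrees of freedom of the fit. Libraries of 1 group differed beyond sampling noise (chi-square over degrees of freedom 4.89 to 61.7). The script was tested on simulated data. Alternatives were DESeq2 1.42.0, size factors, no filter, only the groups compared, leaving out each library or the 4 that stood apart, and the first residual component as covariate. Members, lists and tests were chosen with earlier results of these data known. All members are named; of other lists, called genes with at least 1 CPM, up to 3 from each end per comparison. Like-pattern genes needed at least 5 CPM and were the 3 nearest of those searched. That search left out clone-based and antisense symbols and all symbols starting with AC, AL or AP. Marker genes are named as checks. GC content comes from GENCODE 29 and promoters from RefSeq.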

Additional observations from a re-analysis of the deposited data

Results flagged for a closer look

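The alisertib effect on ADAMTS6 differed between cells with and without TGFβ by a test of the difference itself. The difference was -0.86 on the log2 scale (edgeR interaction test, adjusted p = 0.00294). Without TGFβ the effect was 0.77 ± 0.07, and 3 of 3 alisertib libraries lay above all untreated ones. With TGFβ it was -0.09 ± 0.07 and did not pass (edgeR adjusted p = 0.68), so a fall there was not shown. The 3 of 3 libraries with both agents did lie below those with TGFβ alone. How many of all genes have ranges that part in this way was not counted. No formal test for outlying samples was run on groups of 3 libraries. With 1 library left out at a time, the difference was called in each of the 12 fits.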

How the results depend on the processing

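The 6 TGFβ calls (ADAM9, ADAM12, ADAM17, ADAM19, ADAMTS6 and ADAMTS15) and the ADAMTS6 interaction were made under each alternative run; calls of other members that changed are given beside their results. Counts over all genes moved more. For alisertib alone, 1387 genes were called in the fit reported, 623 with only the groups compared, 5073 without the 4 libraries that stood apart, 5170 with the residual component as covariate, and 718 to 2598 with 1 library left out. For alisertib in TGFβ-treated cells, 428 were called, against 698 with DESeq2, 1434 without the 4 libraries, 3052 with the covariate and 153 to 754 with 1 library left out. For the interaction, 58 were called, against 184 with DESeq2, 105 with no filter, 744 without the 4 libraries, 641 with the covariate and 19 to 166 with 1 library left out. The causes were not tested.

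The following log2 differences changed sign. With alisertib, ADAM9 was at 0.000772 with DESeq2, 0.0007996 with size factors and 0.00305 without the 4 libraries, and at -0.0393 to 0.0327 with 1 library left out, as was ADAM15 at -0.267 to 0.0337. With TGFβ, ADAM10 was at -0.0787 to 0.0154 in such fits. For alisertib in TGFβ-treated cells, ADAM8 was at -0.0854 to 0.207, ADAM15 at -0.0966 to 0.144 and ADAMTS1 at -0.192 to 0.378, and ADAMTS1 was at -0.29 without the 4 libraries. For TGFβ in alisertib-treated cells, ADAM8 was at -0.212 to 0.0655 and ADAM15 at -0.185 to 0.0531. In the interaction, ADAM15 was at -0.0228 to 0.284, ADAM17 at -0.0394 to 0.0255 and ADAMTS1 at -0.441 to 0.129. No paired analysis was possible because the groups share no replicate numbers. Depth limits ADAMTS1, with 26 to 87 reads a library.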
